A study of Mus musculus with 63 samples.

Results

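The genes described here are 8 of the 19938 measured: Xpc, Ddb2, Ercc5, Ercc1, Xpa, Polk, Polh and Mgmt. They were taken by name from a list of excision repair, lesion bypass and alkylation reversal genes linked to p53, and each has 1 probe set with a single gene symbol. Xpc, Ddb2, Ercc5, Polk and Polh are counted as the 5 p53-induced genes, and Ercc1, Xpa and Mgmt as the 3 others. The grouping is by name, and induction by p53 was not tested here. It holds Ddb2 although the mouse gene is known for lacking the p53 response of its human counterpart. The 63 arrays measured lymph node lymphoma cells of Emu-myc transgenic animals on a C57BL/6 background, in which the immunoglobulin heavy-chain enhancer drives Myc in the B lineage. The CTX 4h group holds 31 arrays, sampled 4 h after cyclophosphamide, with 300 mg/kg given in the labels of 29 of them. The native group holds 32 arrays without the drug. Both groups carry the transgene, and the cells were neither purified nor cultured. RNA input to labelling was 100 ng in 29 CTX 4h and 15 native arrays, and 300 ng in 2 CTX 4h and 17 native arrays. The labels of the 2 CTX 4h arrays at 300 ng state no dose.

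The design text of the series describes only untreated samples, so the treatment of an array rests on its own label. The labels do not settle whether native cells came from transgenic animals or from transplant recipients. They also do not say that each array is a separate animal, so a p-value here sets a difference against the spread of the samples, which may be partly technical. In bulk RNA, fewer cells of a type and less RNA per cell cannot be told apart. The 11 B-cell markers measured had array medians from 8.74 for Ighm to 12.98 for Cd79b on the log2 scale. Cd79a had a median of 12.2 and Cd22 of 11.02. The macrophage marker Lyz2 had a median of 12.4, so such levels alone do not give the share of B cells. Native arrays 8 and 19 stood apart from the rest, with a mean correlation to the other arrays of 0.906 and 0.915 against a median of 0.968 over all arrays. Their Myc values were 11.39 and 10.64, against a median of 13.22.

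Nucleotide excision repair removes bulky lesions: XPC and the UV-damage protein DDB2 recognise them, XPA verifies the site, and the nucleases XPG (Ercc5) and ERCC1 with its partner XPF cut out the strand. Translesion polymerases such as kappa and eta copy past lesions that remain, and MGMT strips alkyl groups from guanine without excision. Cyclophosphamide is a prodrug whose active mustard alkylates and crosslinks DNA. p53 induces XPC, DDB2 and POLH in human cells and Polk in mouse cells, while the mouse Ddb2 gene is known for lacking the p53 response of its human counterpart.

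Ercc5 alone of the 8 genes passed the test between CTX 4h and native lymphomas. Polk alone of the 8 passed the test of a slope on other p53 targets among CTX 4h arrays. Both calls were lost in some settings described below. Promoter sequences are shown for Ercc5 and Polk. They are RefSeq sequences of build GRCm38.p6, the 250 bases before each annotated start, written 5′ to 3′ along the gene. The Ercc5 window is chr1:44147494-44147743 on the plus strand. Polk has an upstream start with the window chr13:96542580-96542829 and a downstream start with the window chr13:96519188-96519437, both on the minus strand. Capitals mark a match to the decamer half-site of p53.
Ercc5: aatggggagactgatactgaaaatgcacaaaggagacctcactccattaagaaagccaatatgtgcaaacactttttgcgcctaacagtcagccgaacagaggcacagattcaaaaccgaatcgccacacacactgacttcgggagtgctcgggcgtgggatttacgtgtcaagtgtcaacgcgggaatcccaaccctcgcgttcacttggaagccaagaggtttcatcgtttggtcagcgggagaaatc
Polk, upstream start: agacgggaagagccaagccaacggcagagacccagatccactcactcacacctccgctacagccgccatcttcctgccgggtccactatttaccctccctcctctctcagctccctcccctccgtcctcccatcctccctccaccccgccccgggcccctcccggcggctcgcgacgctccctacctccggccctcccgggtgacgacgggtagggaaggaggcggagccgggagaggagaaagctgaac
Polk, downstream start: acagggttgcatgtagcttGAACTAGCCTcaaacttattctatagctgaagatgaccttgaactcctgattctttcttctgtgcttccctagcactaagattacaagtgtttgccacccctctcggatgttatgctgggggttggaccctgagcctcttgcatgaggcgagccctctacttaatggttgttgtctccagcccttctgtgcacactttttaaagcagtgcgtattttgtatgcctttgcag
The half-site match in the downstream Polk window began 231 bases before the start. Of the 8 windows found for 6 of the 8 genes, it was the 1 window with such a match, and 7.13% of 32851 mouse promoter windows of this length hold one. The Ercc5 window and the upstream Polk window held none. The MYC and MAX motif CACGTG, which reads the same on both strands, was in 0 of the 8 windows and in 6.02% of all. GGGCGG or its reverse complement was in 4 of the 8 windows, the upstream Polk window among them, and in 32.7% of all. A match is a description of the letters alone. Xpc and Ddb2 are named only.

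Of the 8 genes, Ercc5 alone passed the test between CTX 4h and native lymphomas, and it rose. The comparison held RNA input and the first digit of the lymphoma number, here called the number series, which the labels do not explain. Over all 19938 genes, 134 (0.672%) were higher and 65 (0.326%) lower in CTX 4h lymphomas at an adjusted p under 0.05 in limma. Among the 8 genes, 1 was higher and 0 lower. With RNA input alone held, 281 genes (1.41%) were higher and 251 (1.26%) lower, and Ercc5, at 0.44, was again the one of the 8 that passed. The median log2 difference was 0.05 over the 5 p53-induced genes and -0.10 over the 3 others, beside -0.01 over all genes. Thus 7 of the 8 genes did not pass. The intervals of 2 SE given with them below are for the difference averaged over the strata, and values within a batch could lie outside them.

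Ercc5 encodes XPG, the nuclease that cuts on the 3′ side of a lesion. Its log2 values in CTX 4h lymphomas were 7.96 at the lowest, 8.46 at the median and 9.41 at the highest. In native lymphomas they were 7.75, 8.14 and 8.82. The groups overlapped, but 27 of 31 CTX 4h arrays lay above the native median, and 5 lay above every native array. The difference was 0.40 ± 0.10 (log2, SE, adjusted p = 0.0167), a fold of 1.32, and 96 of the 19938 genes had a smaller p.

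The rise of Ercc5 was uneven over the batches. At 300 ng the CTX 4h values were 9.05 and 9.41, against a native range of 7.75 to 8.82 over 17 arrays, so both treated arrays stood above every native one. The difference there was 1.004 ± 0.24 (SE, adjusted p = 0.0321). The fit at 300 ng did not hold number series, and series 8 and 9 have 1 treated array each at that input. At 100 ng the differences were 0.28 ± 0.11, 0.51 ± 0.16 and 0.16 ± 0.17 (SE) in number series 1, 8 and 9, all positive and none past the adjusted threshold. In the 100 ng arrays together Ercc5 differed by 0.29 ± 0.09 (SE, adjusted p = 0.415), with 12 genes (0.0602%) higher and 3 (0.015%) lower among all genes and 0 of the 8. A test of whether the treatment difference itself varied between batches gave Ercc5 a p of 0.0195 (adjusted p = 0.892, limma F test), and no gene passed it, with 975 at an unadjusted p under 0.05 in all.

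The call of Ercc5 was lost without CTX 4h array 30 or without CTX 4h array 31. These are the only treated arrays at 300 ng, and the only treated arrays without a stated dose. Without array 31 the difference was 0.33, the lowest value on leaving out any single array, and the highest adjusted p was 0.102. Markers of some other cells moved with the treatment. Of 14 macrophage markers, 2 rose and all 14 differences were positive. Of 12 stromal and endothelial markers, 1 rose and all 12 differences were positive. Their mean level at 300 ng was 9.42 in CTX 4h and 8.65 in native arrays. Of 6 adipocyte markers 1 rose and all 6 differences were positive, with a mean level at 300 ng of 9.65 in CTX 4h and 8.21 in native arrays. Of 14 T-cell and NK-cell markers 0 passed and 1 difference was positive, with a median of -0.24. Of 8 neutrophil markers 0 passed and 3 differences were positive, with a median of -0.05. At 300 ng the T-cell and NK-cell markers had a mean level of 8.29 in CTX 4h and 7.75 in native arrays. The neutrophil markers had 7.37 in CTX 4h and 6.96 in native arrays at that input. Of 11 B-cell markers 0 passed and 2 differences were positive, with a median of -0.12, while in the 100 ng arrays alone 8 were positive. The B-cell markers had a mean level at 300 ng of 10.45 in CTX 4h and 11.38 in native arrays. The G2 and mitosis genes had a mean level at 300 ng of 8.71 in CTX 4h and 10.27 in native arrays. The mean level of the macrophage markers ranged from 7.84 to 10.005 in CTX 4h arrays and from 8.16 to 9.07 in native arrays, and at 300 ng it was 9.58 and 10.005 in CTX 4h arrays against 8.26 to 9.07 in native ones. Their medians ran from 4.68 for Vsig4 to 12.4 for Lyz2, and a log2 array value has no zero. With the macrophage and stromal scores held, Ercc5 differed by 0.25 (adjusted p = 0.452). Of 60 small nucleolar and other small RNAs, 24 rose, and with their score held Ercc5 differed by 0.35 (adjusted p = 0.216). The part of these RNAs in the Ercc5 result was not tested further.

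**Figure D1:**
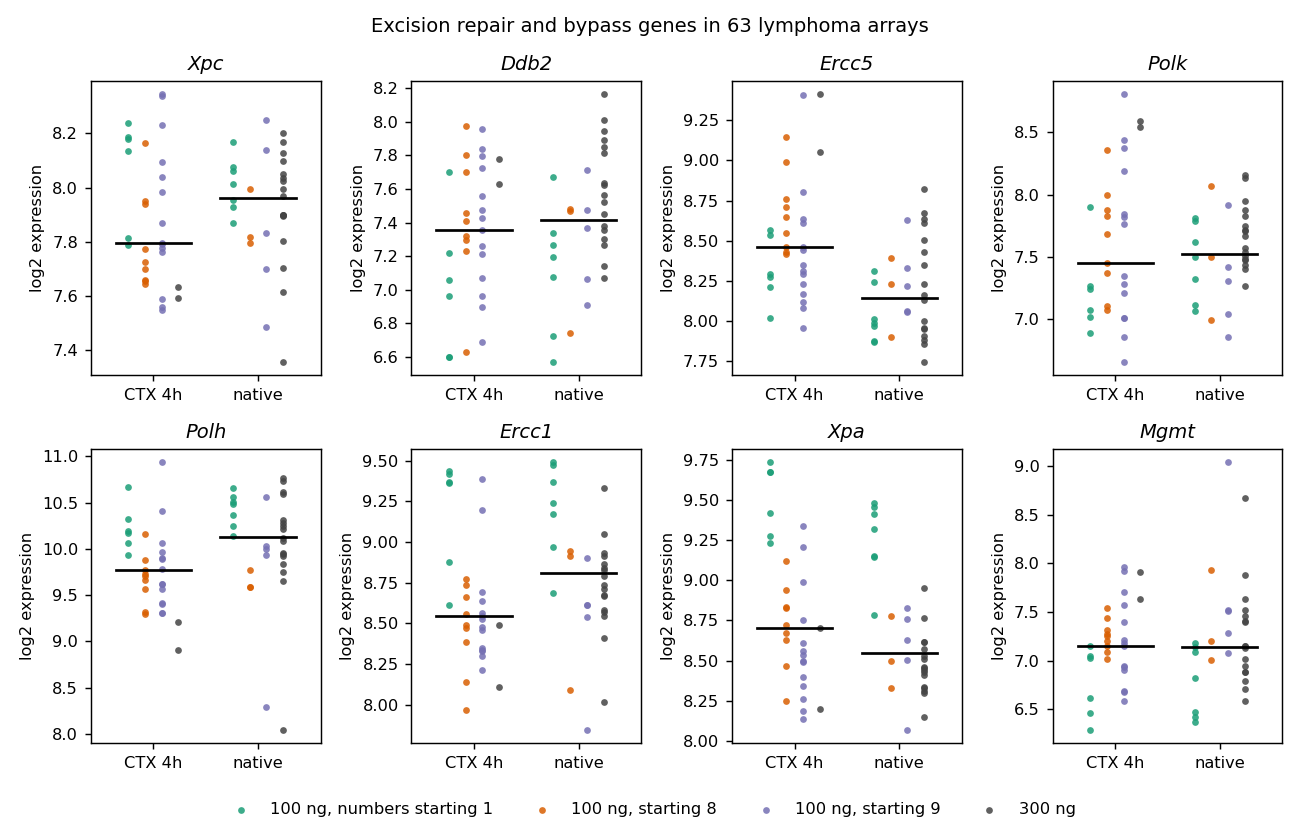
Log2 expression of the 8 genes in 63 arrays, with CTX 4h left and native right in each panel. Points are arrays coloured by RNA input and number series, and the black bar is the group median. Ercc5 has a median of 8.46 in CTX 4h and 8.14 in native arrays, and 7 CTX 4h arrays lie above every native array for Polk.

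The damage-recognition genes did not pass. Xpc, which encodes the sensor of distorted DNA, had values of 7.55, 7.80 and 8.34 in CTX 4h lymphomas (lowest, median and highest) and 7.36, 7.96 and 8.25 in native ones. The groups overlapped over nearly their whole range. The difference was -0.04 ± 0.07 (SE, adjusted p = 0.922), with a 2 SE interval of -0.18 to 0.09. Ddb2, which encodes the UV-damage sensor that hands lesions to XPC, had values of 6.60, 7.35 and 7.97 in CTX 4h lymphomas and 6.57, 7.42 and 8.16 in native ones. These ranges too were nearly the same. Its difference was 0.05 ± 0.11 (SE, adjusted p = 0.944), with an interval of -0.16 to 0.27.

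The verification and incision genes outside the p53-induced group did not pass either. Xpa, whose protein checks the damaged strand, had values of 8.14, 8.70 and 9.73 in CTX 4h lymphomas and 8.07, 8.55 and 9.48 in native ones. The difference was 0.11 ± 0.08 (SE, adjusted p = 0.721) and its interval was -0.05 to 0.27. Ercc1, the partner of XPF in the 5′ cut and in crosslink repair, had values of 7.96, 8.55 and 9.43 in CTX 4h lymphomas and 7.84, 8.81 and 9.49 in native ones. Both genes ranged widely within each group, which the number series below describes. The Ercc1 difference was -0.10 ± 0.10 (SE, adjusted p = 0.846), with an interval of -0.29 to 0.10.

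Polk, which encodes polymerase kappa, had a wide spread after the drug and close medians in the 2 groups. In CTX 4h lymphomas its values were 6.66, 7.45 and 8.81 (SD 0.59, n = 31), against 6.86, 7.53 and 8.16 in native lymphomas (SD 0.33, n = 32). Of the CTX 4h arrays, 7 lay above every native array and 1 below every native array. The difference was 0.21 ± 0.14 (SE, adjusted p = 0.695), with an interval of -0.07 to 0.48.

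At 300 ng Polk had values of 8.54 and 8.59 in CTX 4h arrays, against 7.27 to 8.16 in the native arrays, with no overlap. The difference there was 0.89 ± 0.18 (SE, adjusted p = 0.0123), with number series not held. The mean level of the macrophage markers in these treated arrays was 9.58 and 10.005, against 8.26 to 9.07 in native arrays at 300 ng. Over all arrays, with the macrophage and stromal scores held, Polk differed by -0.14 (adjusted p = 0.912). The part of macrophage RNA in the Polk difference at 300 ng was not tested. Within the 300 ng arrays 238 genes (1.19%) were higher and 114 (0.572%) lower, and of the 8 genes Ercc5 and Polk were higher. At 100 ng the Polk differences were -0.23 ± 0.17, 0.12 ± 0.27 and 0.31 ± 0.29 (SE) in number series 1, 8 and 9, of mixed sign. After the mean of each RNA input and number series was taken out, the SD of Polk among CTX 4h arrays was 0.55, above that of 92.0% of all genes, and among native arrays 0.32, above that of 60.8%. The difference between these spreads was not tested.

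Polh, which encodes polymerase eta, the bypass enzyme missing in the variant form of xeroderma pigmentosum, did not pass. Its values were 8.90, 9.77 and 10.9 in CTX 4h lymphomas and 8.04, 10.1 and 10.8 in native ones. The lowest native values, 8.04 and 8.29, came from arrays 19 and 8, and the next lowest was 9.58. The difference was -0.21 ± 0.15 (SE, adjusted p = 0.722), with an interval of -0.51 to 0.08. In the 100 ng arrays together it was -0.048 (adjusted p = 0.981), at 300 ng it was -1.01 (adjusted p = 0.272), and without CTX 4h array 30 it was -0.13. Without native arrays 8 and 19 it was -0.35 (adjusted p = 0.0740), and without them and with RNA input alone held it was -0.45 (adjusted p = 0.0102), a setting added after the data were seen. The G2 and mitosis genes moved the same way, with 0 of 19 higher and 3 lower. In the 100 ng arrays alone 0 of the 19 passed, with a median of -0.26. With the G2 and mitosis score held over all arrays, Polh differed by 0.10 (adjusted p = 0.498). The part of these genes in the Polh difference was not tested further.

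Mgmt, the suicide enzyme that takes alkyl groups off guanine, had values of 6.29, 7.15 and 7.96 in CTX 4h lymphomas and 6.37, 7.14 and 9.04 in native ones. The medians were close, and 2 native arrays lay above every CTX 4h array. The difference was -0.11 ± 0.14 (SE, adjusted p = 0.897), with an interval of -0.39 to 0.17. Within batches it ran from -0.48 in number series 9 at 100 ng to 0.52 at 300 ng, neither past the threshold.

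**Figure D2:**
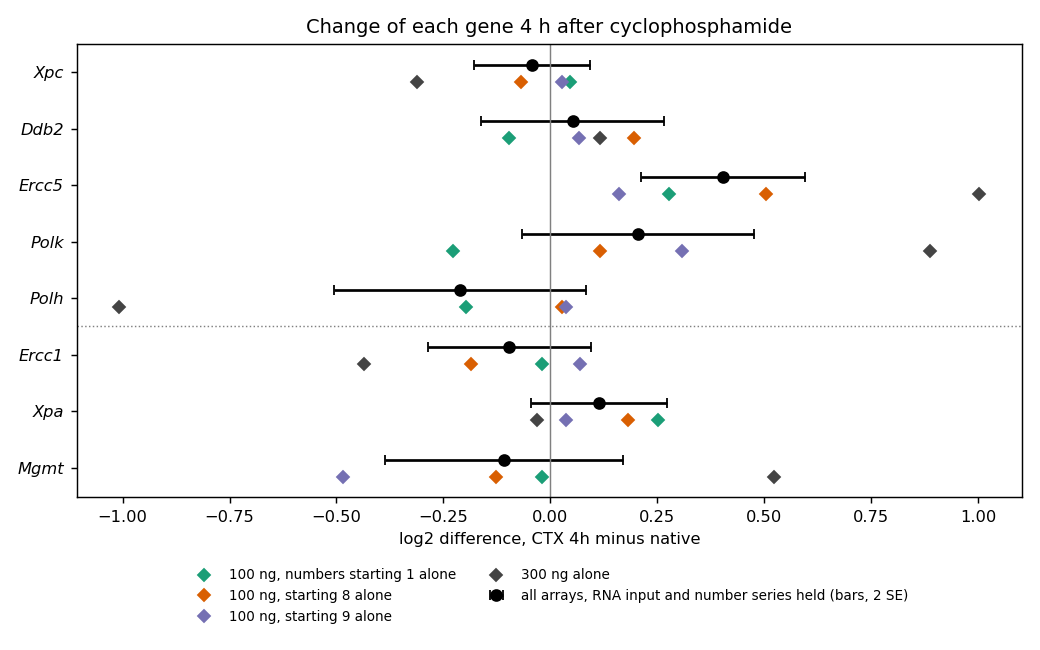
Log2 difference, CTX 4h minus native, of each gene. Black points are the fit over all arrays with bars of 2 SE, and diamonds are the differences within each batch. The dotted line parts the 5 p53-induced genes above from the 3 others. Ercc5 is positive in all 4 batches, from 0.16 to 1.004, and Polh lies at -1.01 in the 300 ng arrays alone.

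None of the other listed repair genes passed the same test, where 0.672% of all genes were higher and 0.326% lower, so that a count of 0 in lists of this size is near the share over all genes. Among 26 other nucleotide excision repair genes 0 passed, and their median difference was 0.01. The smallest p was that of Gtf2h3, a subunit of the helicase complex TFIIH, at -0.25 ± 0.11 (SE, adjusted p = 0.422). Among 22 other translesion synthesis genes 0 passed, with a median of -0.03 and with the fork-remodelling ubiquitin ligase gene Hltf lowest in p at -0.29 ± 0.09 (SE, adjusted p = 0.118). With RNA input alone held Hltf passed, at -0.32 (adjusted p = 0.0330). Among 19 alkylation reversal and base excision genes 0 passed, with a median of -0.09, and the uracil glycosylase gene Smug1 had a difference of -0.13 ± 0.04 (SE, adjusted p = 0.136).

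Of 26 p53 target genes outside the 8, 5 rose and none fell, where 0.672% of all genes were higher and 0.326% lower. Their median was 0.31, with a positive difference in 25. The list was chosen with earlier results of these data known, so its rise is a description and not an independent test. In the 100 ng arrays alone 1 of the 26, Ddit4, passed (0.79, adjusted p = 0.0199), with a median of 0.23. Ddit4, an inhibitor of mTORC1 signalling, averaged 10.3 ± 0.52 in CTX 4h lymphomas and 9.58 ± 0.63 in native ones (SD), a difference of 0.84 ± 0.15 (SE, adjusted p = 7.65e-04). The stress-response gene Sesn2 averaged 7.79 ± 0.67 in CTX 4h lymphomas and 7.12 ± 0.37 in native ones (SD), a difference of 0.81 ± 0.16 (SE, adjusted p = 0.00296). The kinase gene Plk3 rose by 0.61 ± 0.12 and the xylulose reductase gene Dcxr by 0.28 ± 0.07 (SE, adjusted p = 0.00332 for Plk3 and 0.0159 for Dcxr). In the 100 ng arrays alone the adjusted p was 0.260 for Sesn2, 0.248 for Plk3 and 0.644 for Dcxr. Ercc5, at 0.40, lay within the range of these targets. The other 4 genes counted as p53-induced, from -0.21 to 0.21, lay below the median of the targets. They include Ddb2, whose mouse gene is known for lacking the p53 response.

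**Figure D3:**
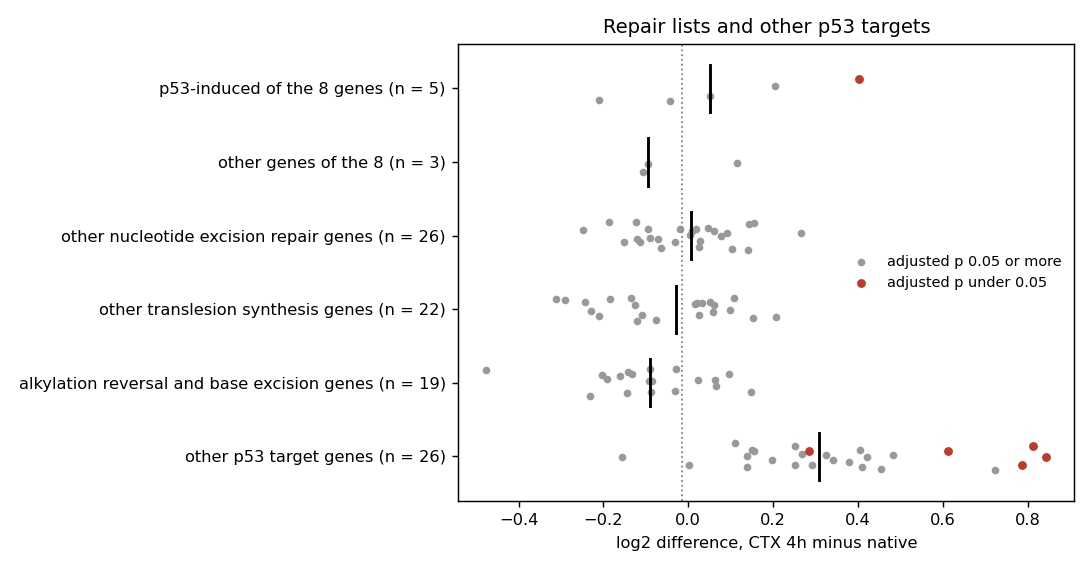
Log2 difference, CTX 4h minus native, of each gene in 6 lists, with red points for an adjusted p under 0.05. The black bar is the list's median and the dotted line the median of all genes, -0.01. The red point among the p53-induced genes is Ercc5, and 5 red points lie among the 26 other p53 targets.

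Because treated lymphomas differed among themselves in the other p53 targets, each gene was set against a p53 score, the mean of those 26 genes after centring each. The score ran from -0.34 to 0.62 in CTX 4h arrays and from -0.58 to 0.12 in native arrays. Among the CTX 4h arrays 186 genes (0.933%) rose with the score and 7 (0.0351%) fell, with RNA input and number series held. Of the 8 genes, Polk alone passed. Its slope was 2.07 ± 0.29 log2 units per unit of score (SE, adjusted p = 2.68e-04, limma), and 4 genes of the whole array had a smaller p. The score itself holds none of the 8 genes, and 10 of the 186 genes are among its own 26.

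The other slopes among CTX 4h arrays did not pass. They were 0.79 ± 0.24 for Ercc5 (SE, adjusted p = 0.114), 0.76 ± 0.32 for Ddb2 (adjusted p = 0.319) and -0.67 ± 0.31 for Mgmt (adjusted p = 0.363). Xpc, Xpa, Ercc1 and Polh had slopes between -0.27 and 0.16. On simulated data of this design, 26 of 100 genes with a slope of 1 were called, so a slope of that size was often missed.

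The slope of Polk held within number series 9, at 2.19 ± 0.29 (SE, adjusted p = 0.00273), and was 1.72 ± 0.69 (SE, adjusted p = 0.813) in number series 8. In number series 1 the score ranged only from -0.01 to 0.16, and the slope was -0.03 ± 2.36 (SE). Each of the 2 treated 300 ng arrays was alone in its number series at that input, so the fitted slope rests on the 100 ng arrays. Leaving out each CTX 4h array in turn gave slopes from 1.92 to 2.18, past the threshold in all 31 cases.

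Markers of other cells followed the score too. Among the CTX 4h arrays, 7 of 14 macrophage markers and 1 of 12 stromal and endothelial markers rose with it. All 14 macrophage slopes (median 1.83) and all 12 stromal and endothelial slopes (median 1.25) were positive. Of 19 G2 and mitosis genes 0 passed, and all 19 slopes were negative. Within RNA input and number series, the p53 score had r = 0.79 with the macrophage score and 0.65 with the stromal score. With the G2 and mitosis score it had r = -0.46. With the macrophage and stromal scores held, the Polk slope was 1.38 ± 0.44 (SE, unadjusted p = 0.00405, adjusted p = 0.99999), and 0 genes passed. With the G2 and mitosis score held the slope still passed (adjusted p = 0.00333). The part of macrophage RNA in the Polk slope was not tested beyond these values.

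Among native arrays 7 genes (0.0351%) rose with the score and none of the 8 passed. The Polk slope there was 0.33 ± 0.45 (SE, adjusted p = 0.776), 0.84 ± 0.54 (SE, adjusted p = 0.824) without native arrays 8 and 19, and from 0.078 to 0.61 on leaving out single arrays. The slope in CTX 4h minus that in native arrays was 1.74 ± 0.54 for Polk (SE, unadjusted p = 0.00226, adjusted p = 0.992), and no gene passed that test of the difference, with 699 at an unadjusted p under 0.05. A difference of slope between the groups was therefore not shown for Polk. For Ercc5 the native slope was 0.59 ± 0.40 and for Ddb2 0.91 ± 0.46 (SE), neither past the threshold.

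**Figure D4:**
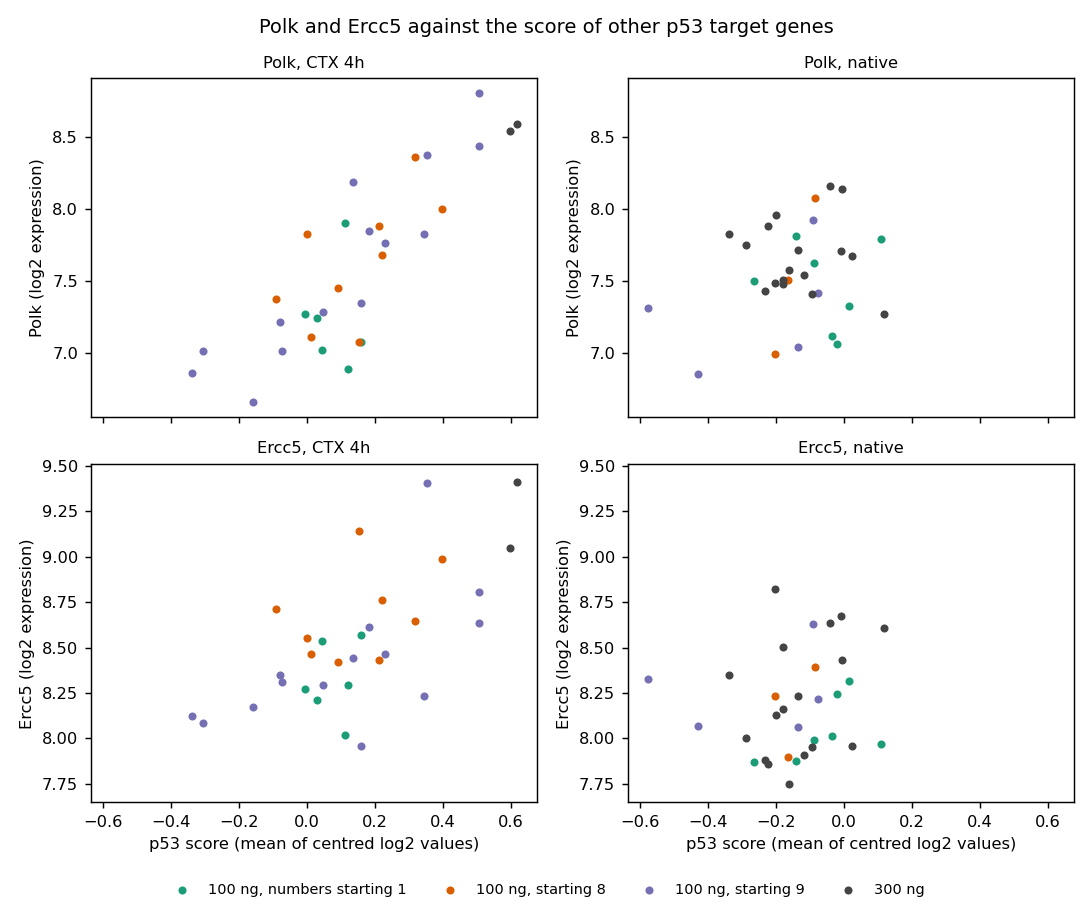
Polk (top) and Ercc5 (bottom) in log2 expression against the p53 score, with CTX 4h left and native right. Points are arrays coloured by RNA input and number series. The CTX 4h arrays span scores from -0.34 to 0.62 and Polk values from 6.66 to 8.81, and the native arrays show a narrower spread of both.

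Xpa, Ercc1, Polh, Mgmt, Xpc and Ddb2 had larger fitted differences between number series than between CTX 4h and native lymphomas over all arrays. This comparison was added after the values were seen, and what the first digit of a lymphoma number stands for is not given in the labels. In the 100 ng arrays, numbers starting with 1 were set against those starting with 8 or 9, with treatment held, and 5863 genes (29.4%) were higher and 5701 (28.6%) lower. Of the 8 genes, 4 were higher and 1 lower, in a contrast that most genes of the array passed. In the CTX 4h arrays alone and in the native arrays alone 3 were higher (Xpa, Ercc1 and Polh) and 1 lower (Mgmt), and Xpc did not pass there (adjusted p = 0.136 in CTX 4h and 0.386 in native arrays). Without native array 8 the same 3 were higher and 2 lower (Mgmt and Ddb2).

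Xpa in number series 1 was 9.23 to 9.73 in CTX 4h arrays and 8.78 to 9.48 in native arrays. In number series 8 it was 8.25 to 9.12 in CTX 4h arrays and 8.33 to 8.78 in native arrays. In number series 9 it was 8.14 to 9.34 in CTX 4h arrays and 8.07 to 8.83 in native arrays, so series 1 lay highest, with some overlap in both groups. The difference for number series 1 was 0.78 ± 0.10 for Xpa, 0.65 ± 0.11 for Ercc1, 0.59 ± 0.14 for Polh and 0.17 ± 0.08 for Xpc (SE, adjusted p = 1.86e-08 for Xpa, 4.76e-06 for Ercc1, 4.29e-04 for Polh and 0.0487 for Xpc). Mgmt fell by 0.60 ± 0.15 (SE, adjusted p = 6.20e-04). Ddb2 (-0.28), Ercc5 (-0.22) and Polk (-0.20) did not pass. In the same contrast 17 of 26 other nucleotide excision repair genes and all 19 G2 and mitosis genes were higher. So were 9 of 11 B-cell markers, while 50 of 60 small nucleolar and other small RNAs (median -1.50), 6 of 7 salivary gland markers and 4 of 6 adipocyte markers were lower. The part of these RNAs in the differences of the 8 genes between number series was not tested.

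**Figure D5:**
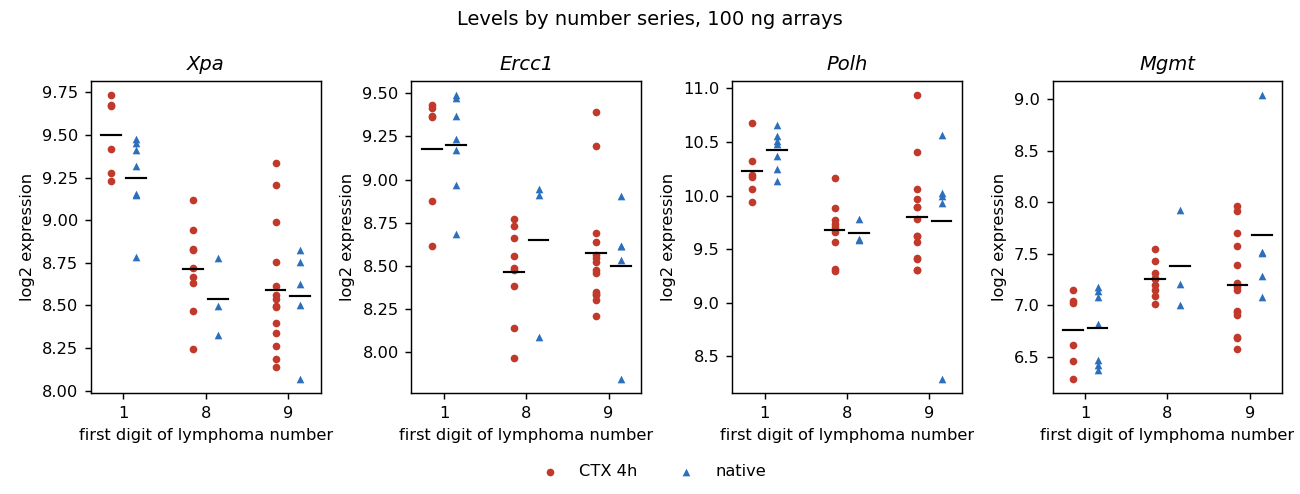
Log2 expression of Xpa, Ercc1, Polh and Mgmt in the 100 ng arrays by the first digit of the lymphoma number. Circles are CTX 4h arrays, triangles native arrays and bars their means. Xpa lies highest in series 1, and Mgmt lowest there, with a native array at 9.04 in series 9.

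The genes most like each of the 8 over the 63 arrays, once the mean of each group, RNA input and number series was taken out, differed from gene to gene. They are ranked by Pearson's r, given as a description. Polh was closest to Adss, Aurkb and Uck2, each with r = 0.90, and with r from 0.80 to 0.82 over the 61 arrays without native 8 and 19. Aurkb is a kinase of chromosome segregation. Ercc1 was closest to Pop4 (r = 0.87) and Xpa to Mtfr1l (r = 0.78). Polk was closest to Csrnp2 (r = 0.79), Inka2 (r = 0.73) and Enc1 (r = 0.72), Ercc5 to Il10ra (r = 0.69), the receptor for interleukin-10, and Mgmt to Prickle1 (r = 0.79). Xpc was closest to Ing3 (r = 0.69) and Ddb2 to Zfp169 (r = 0.73). None of the 24 genes so ranked, 3 for each, was among the 26 p53 target genes listed here. Whether any of them is a p53 target outside that list was not examined. Among the 8 genes themselves the pair most alike was Ercc1 and Polh (r = 0.62), and Ercc5 and Polk had r = 0.32.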

How the data were processed

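Total RNA of 63 lymph node lymphoma samples was measured on expression arrays. The deposited values are log2 expression values, and Partek 6.5 and RMA are the tools given in the submitters' processing notes. RMA corrects background, normalizes arrays and summarises probes. Scanner files were not used here, the settings are not given in the sources used here, and RMA shrinks the differences of weakly expressed genes. Medians of the arrays ran from 6.53 to 7.11.

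The platform annotation pairs 21789 of 35557 probe sets with a single symbol, 1621 with several and 12147 with none. Where a gene had several single-symbol probe sets, the one with the highest mean stood for it, which left 19938 genes. Groups came from the treatment label. limma 3.58.1 in R 4.3.3 (lmFit, eBayes, two-sided, Benjamini-Hochberg adjusted p under 0.05 over all genes) was fitted with treatment and stratum, the strata being 100 ng with numbers starting 1, 8 or 9 and 300 ng with 8 or 9. The fit within the 300 ng arrays held treatment alone. Marker and p53 scores are means of centred genes. Named genes are the 8, the smallest p in each other list, up to 4 p53 targets and the 3 genes most like each of the 8. The members and lists were chosen with earlier results of these data known.

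On data simulated with this design over 19938 genes, the comparison of CTX 4h with native called 88 of 100 genes changed by 0.5, 98 of 100 changed by 1, and 5 unchanged genes. The slope among CTX 4h arrays called 1 of 100 at 0.5 and 26 of 100 at 1. The number of arrays limits the precision. Alternatives covered covariates, batches, array scaling, probe set choice, filters, array weights, marker scores and leaving out arrays. List entries without a single-symbol probe set, such as Cdkn1a and Bax, were not analysed here. Figures were drawn with matplotlib 3.10.9.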

Additional observations from a re-analysis of the deposited data

Results flagged for a closer look

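Single arrays were compared with the rest of their group within an RNA input and number series, in the 5 such groups that hold 4 to 10 arrays. Over the 8 genes this made 40 sets of values, and in 5 an array lay far from the others, where chance flags about 1 in 20. Polh in native array 8 was 8.29, the lowest of 5 arrays at 100 ng in number series 9, with the nearest at 9.93. This is 1 of the 2 native arrays that stood apart over all genes. Mgmt in native array 4 was 9.04 in that same group, with the nearest at 7.52, and without it the difference of Mgmt between CTX 4h and native changed sign, at 0.015. Mgmt in native array 30 was 8.68, the highest of 6 arrays at 300 ng in number series 9, with the nearest at 7.13. Xpa in native array 27 was 8.95 in that group, with the nearest at 8.62. Polk in CTX 4h array 25 was 7.90, the highest of 6 arrays at 100 ng in number series 1, with the nearest at 7.27.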

How the results depend on the processing

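No paired analysis was possible because each array carries a lymphoma number of its own and no label ties an array of one group to one of the other. The number of genes called between CTX 4h and native was 199, and was 532 with RNA input alone held, 301 with no covariate, 15 at 100 ng, 0 in each 100 ng number series and 352 at 300 ng. It was 506 without native arrays 8 and 19, 2495 without them and with RNA input alone, and 1002 with array weights. It was 24 with macrophage and stromal scores held, 20 with either the small nucleolar RNA or the macrophage score, 33 with the stromal score and 1429 with the G2 and mitosis score. Between the groups, the macrophage or stromal score alone and the removal of native 8 and 19 with RNA input alone were chosen after seeing the data, as were single scores and single batches for the slope. The count of the 8 genes called was 0 where the Ercc5 call was lost, and 2 at 300 ng (Ercc5 and Polk) and without native 8 and 19 with RNA input alone (Ercc5 and Polh). Ercc5 missed the threshold at 100 ng (0.29), in its series 1, 8 and 9 (0.28, 0.51 and 0.16), and with macrophage and stromal (0.25), macrophage (0.24), stromal (0.31) or small nucleolar RNA (0.35) scores held, and it was positive in all 23 settings. In each within-batch fit at 100 ng limma called 0 genes, with 775, 1157 and 602 at an unadjusted p under 0.05 in series 1, 8 and 9.

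The number of genes following the p53 score among CTX 4h arrays was 193, against 63 with the median of the score genes, 0 with macrophage and stromal or macrophage scores held, 0 in series 1 or 8, 784 with the small nucleolar RNA score and 482 with the G2 and mitosis score. The Polk slope missed the threshold with macrophage and stromal (1.38) or macrophage (1.41) scores held and in series 8 (1.72), and was -0.026 in series 1. Then 0 of the 8 genes were called. Among native arrays 7 genes became 0 without arrays 8 and 19 or with macrophage and stromal scores held. The cause of these changes was not tested.

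Leaving out single arrays gave 83 (without CTX 4h 30 or 31) to 290 (without native 8) genes between the groups and 0 to 1 of the 8, 58 (without CTX 4h 13) to 308 (without CTX 4h 3) genes with the score in CTX 4h, and 0 to 28 in native. The count in CTX 4h moved by over 1.5 times without array 3, 12, 13, 14, 20 or 29, and that in native without 15 of 32 arrays. Ercc5 ran from 0.33 to 0.44 and Mgmt from -0.18 to 0.015. The CTX 4h slope of Xpa ran from -0.071 to 0.25. Native slopes ran from -0.28 to 0.14 for Xpc, -0.48 to 0.54 for Ercc1, -1.41 to 1.17 for Polh and -0.59 to 0.39 for Mgmt.

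Values short of the threshold changed sign in 26 of 161 cases between the groups. Xpc was 0.011 at 100 ng, 0.014 with the mitosis score held, and 0.047 and 0.028 in series 1 and 9. Ddb2 was -0.067 with no covariate, -0.097 in series 1, -0.043 with macrophage and stromal, -0.061 with small nucleolar RNA, -0.055 with macrophage, -0.030 with mitosis and -0.00019 with stromal scores held. Ercc1 was 0.070 in series 9 and 0.068 with mitosis held. Xpa was -0.052 with RNA input alone, -0.032 at 300 ng and -0.099 without native 8 and 19 with RNA input alone. Polk was -0.23 in series 1 and -0.14, -0.11 and -0.081 with macrophage and stromal, macrophage or stromal scores. Polh was 0.026 and 0.037 in series 8 and 9 and 0.10 with mitosis held. Mgmt was 0.016 with RNA input alone, 0.019 so without native 8 and 19, and 0.52 at 300 ng. Slopes in CTX 4h did so for Xpc (-0.15 and -0.14 with macrophage and stromal or macrophage scores, -0.18 in series 1), Ddb2 (-1.45 and -0.44 in series 1 and 8) and Xpa (-0.041 with the median score, -0.35 in series 8). They did for Ercc1 (0.19 and 0.20 with macrophage and stromal or macrophage scores, 0.10 in series 9, 0.16 with small nucleolar RNA, 0.33 with mitosis) and Polh (0.021 and 0.0039 with the same macrophage settings, 1.07 in series 1, 0.32 with mitosis). Native slopes without arrays 8 and 19 were 0.13 for Xpc, -0.055 for Ercc1, -0.070 for Xpa, -0.19 for Polh and -0.052 for Mgmt, which was -0.24 with macrophage and stromal scores held.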

Other observations

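Markers of the salivary gland varied more between arrays than any of the 8 genes. The mean level of 7 such markers ranged from 4.77 to 11.998 in CTX 4h arrays and from 4.41 to 11.8 in native arrays on the log2 scale. In number series 1 at 100 ng it stayed between 4.77 and 5.82 in CTX 4h arrays and between 4.72 and 4.96 in native arrays. The mean level of 6 adipocyte markers ranged from 6.68 to 10.5 in CTX 4h arrays and from 6.61 to 9.39 in native arrays. The part of these tissues in the values of the 8 genes was not tested.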
